A study of Homo sapiens with 2 samples.

Results

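The promoters described here are those of 31 genes at the start of WNT signalling: 19 WNT ligands, 10 Frizzled (FZD) receptors and the co-receptors LRP5 and LRP6. They were taken by gene name out of 19819 protein-coding genes of chromosomes 1 to 22 and X, by a rule that uses no measured value. A promoter was the start site of the canonical transcript with 2.5 kb on each side, and its rows were those joining an anchor that overlapped this window to another anchor with its midpoint up to 1 Mb away. The data were H3K27ac HiChIP of HCT116, an established human colorectal carcinoma cell line grown in DMEM with serum and with no treatment named, in 2 replicates that share all conditions and leave no groups to compare. In HiChIP, chromatin is cut (here with MboI, at GATC) and ligated in the nucleus, and ligated fragments that carry H3K27ac, a mark of active promoters and enhancers, are recovered with an antibody. An anchor is a stretch of the genome between MboI sites, a loop is a pair of different anchors joined by at least 1 paired-end tag, and the count of a loop is its number of tags. The replicates are numbered without a statement that they came from separate cultures, so their spread may be technical.

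WNT ligands are secreted lipid-modified proteins that bind a Frizzled receptor together with LRP5 or LRP6. Binding stops the destruction of β-catenin, which then activates target genes with TCF/LEF factors, and in the colon this pathway maintains the stem cells of the crypt. HCT116 cells carry a mutation in CTNNB1, the gene of β-catenin, that protects the protein from destruction downstream of the receptors.

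The sequences below are the 250 bases before the start site of the ligands with a strong loop (WNT10A and WNT16) and of LRP5. Summed over its 2 anchors and both replicates, LRP5 had the deepest promoter among the receptors and co-receptors (47 tags, compared with 38 for FZD2). In replicate 1 alone FZD2 had more tags, 21 compared with 18. The sequences were read from the hg19 genome on the plus strand, the coding strand of all 3 genes, at chr2:219745324-219745573 (WNT10A), chr7:120968804-120969053 (WNT16) and chr11:68079809-68080058 (LRP5). Capitals mark GATC, where MboI cuts.
WNT10A: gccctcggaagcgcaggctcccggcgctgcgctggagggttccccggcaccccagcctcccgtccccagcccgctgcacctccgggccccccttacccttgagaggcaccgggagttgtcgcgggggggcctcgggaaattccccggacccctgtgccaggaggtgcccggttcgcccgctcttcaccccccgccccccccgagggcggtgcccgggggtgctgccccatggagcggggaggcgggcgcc
WNT16: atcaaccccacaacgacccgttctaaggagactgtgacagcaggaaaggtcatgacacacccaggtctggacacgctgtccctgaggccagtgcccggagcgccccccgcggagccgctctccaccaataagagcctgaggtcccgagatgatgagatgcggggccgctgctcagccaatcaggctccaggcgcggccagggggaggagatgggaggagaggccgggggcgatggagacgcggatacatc
LRP5: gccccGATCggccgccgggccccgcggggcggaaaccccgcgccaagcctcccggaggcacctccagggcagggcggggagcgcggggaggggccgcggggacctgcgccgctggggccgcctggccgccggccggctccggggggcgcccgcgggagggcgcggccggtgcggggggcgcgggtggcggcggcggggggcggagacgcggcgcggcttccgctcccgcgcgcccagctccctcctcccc
The LRP5 sequence held 1 MboI site, at chr11 position 68079814, which is the edge of its own anchor. The WNT10A and WNT16 sequences held none. The sequences were rich in CpG, with 24 in WNT10A, 17 in WNT16 and 43 in LRP5, and their GC content was 77.6%, 64.8% and 87.2%.

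Replicate 1 held 1885481 tags and replicate 2 held 2131466, over 250222 anchors with a median width of 2541 bp, and 16.0% and 14.2% of them joined an anchor with itself and entered no depth. Epithelial markers, used as a check of the cell line, had deep promoters (as defined below) in 5 of 7 genes, compared with 20.4% of all genes. The keratin KRT18 led (59 and 74 tags), while EPCAM (10 and 16) and CDH1 (4 and 11) were not deep. Of 4 intestinal markers, CDX2 was deep (29 and 27 tags) and CDX1, VIL1 and CDH17 were not. The blood (4 genes), liver (2) and neuron (2) markers had 0 deep promoters, which sets of this size cannot tell apart from the share of all genes. Of 4 stromal markers COL3A1 was deep (37 and 40 tags on 14.3 kb of anchor).

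WNT10A, WNT16, WNT1, WNT7B and LRP5 had deep promoters, meaning a depth at or above the 75th percentile of all protein-coding genes in each replicate (18 tags in replicate 1 and 22 in replicate 2). These 5 were 16.1% of the 31 members, compared with 20.4% of all protein-coding genes, so deep promoters were not more frequent among the members than elsewhere. Of the ligands 4 of 19 were deep, of the Frizzled receptors 0 of 10, and of the co-receptors 1 of 2. The median depth over both replicates was 20 tags for the members and 24 for all genes, and 13 members (41.9%) were above the median of all genes, against 49.2% of all genes. Among promoters with an anchor the medians were 26 and 29 tags, or 5.98 and 7.30 tags per kb of anchor.

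**Figure D1:**
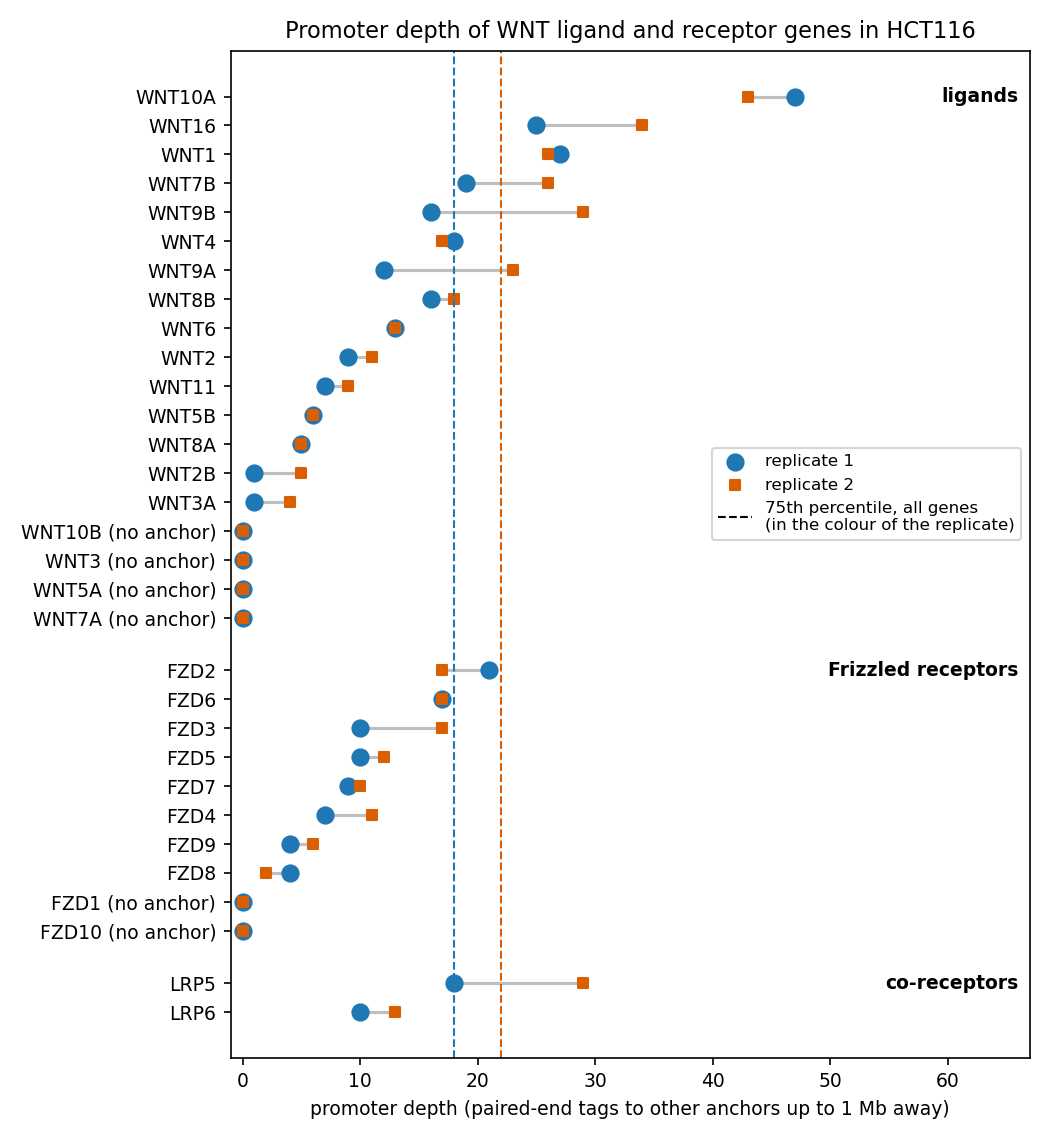
Promoter depth of the 31 genes in each replicate, in paired-end tags to other anchors up to 1 Mb away, ordered by summed depth within ligands, Frizzled receptors and co-receptors. Circles are replicate 1, squares are replicate 2 and the dashed lines mark the 75th percentile of all genes (18 and 22 tags). WNT10A has the most tags in each replicate (47 and 43), no Frizzled receptor passes both lines, and 6 genes have no anchor.

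Among the ligands, WNT10A, a ligand of tooth and hair development, had 47 tags in replicate 1 and 43 in replicate 2. Their sum of 90 (95% Poisson interval 72.4 to 111, counting error only) was higher than in 97.6% of protein-coding genes. At the canonical start sites both replicates were above every other member. The tags came from 2 anchors that covered 18.9 kb. The first, chr2:219731730-219745637 (hg19, 13.9 kb), held the start site and exon 1 of WNT10A and also exons 2 to 4 of the neighbouring gene WNT6, and had 36 and 35 tags. The second, chr2:219746308-219751303, held exon 2 of WNT10A and had 14 and 8. Per kb of anchor WNT10A had 4.76 tags, below the median of 7.30 among genes with an anchor.

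WNT16, a ligand known for its part in cortical bone, had 25 and 34 tags (sum 59, 44.9 to 76.1) on 8.65 kb of anchor, or 6.82 per kb. No anchor lay over its start site. The tags came from chr7:120966005-120967642 (10 and 11) and from chr7:120970581-120977598 (16 and 25), which held exon 3. WNT1, the founding member of the family, had 27 and 26 tags from a single anchor of 12.3 kb, or 4.31 per kb. WNT7B, a β-catenin-activating ligand of lung and brain vessel development, had 19 and 26 tags on 4.67 kb, or 9.63 per kb, so that replicate 1 was 1 tag above the threshold. The intervals of WNT16, WNT1, LRP5 and WNT7B overlapped each other, and that of WNT16 also overlapped that of WNT10A.

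The other ligands were not deep. WNT9B, a ligand of kidney tubule formation, had 16 and 29 tags on 14.6 kb and passed only in replicate 2. WNT9A, known from joint formation, had 12 and 23 tags and also passed only in replicate 2, while WNT4, which acts in kidney and ovary development, had 18 and 17 and reached the threshold only in replicate 1. WNT8B had 16 and 18 tags and WNT6 13 and 13. WNT2 (9 and 11), WNT11 (7 and 9), WNT5B (6 and 6), WNT8A (5 and 5), WNT2B (1 and 5) and WNT3A (1 and 4) were below the median of all genes in both replicates. WNT2B is known as a ligand that stromal cells supply to the crypt.

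No Frizzled receptor was deep, and 2 of 10 reached the 75th percentile of depth per kb in both replicates. FZD2 had 21 and 17 tags on 2.34 kb, or 16.2 per kb, higher than in 94.2% of protein-coding genes on that scale. FZD7, described as a receptor of intestinal stem cells, had 9 and 10 tags on 1.68 kb, or 11.3 per kb. These were the only members deep per kb (6.45% of 31, compared with 17.9% of all genes), and none of the 5 deep members was among them.

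The remaining Frizzled promoters had between 6 and 34 tags in both replicates together where they had an anchor. FZD6, which acts in planar cell polarity, had 17 and 17 on 7.65 kb and FZD3, a receptor of axon guidance, had 10 and 17 on 2.27 kb. FZD5, which acts in the Paneth cells of the crypt, had 10 and 12, and FZD4, also the receptor of norrin, had 7 and 11. FZD9 had 4 and 6 and FZD8 4 and 2, and these were the shallowest receptor promoters with an anchor. Of the co-receptors, LRP5 had 18 and 29 tags on 4.49 kb, or 10.5 per kb, and in replicate 1 it was exactly at the threshold. Its tags came from 2 anchors. The one over the start site, chr11:68079814-68082757, had 13 and 16 tags, alone below the threshold in each replicate. The other, chr11:68076939-68078486, lay upstream and had 6 and 15. LRP6 had 10 and 13 on 4.48 kb, or 5.13 per kb.

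Depth followed the width of the anchors. Spearman's correlation of summed depth with anchor width was 0.731 over the 25 members with an anchor and 0.569 over 16472 genes, as a description, since genes are not independent replicates. Of 736 genes with at least 10 kb of promoter anchor, 563 were deep and 39 were deep per kb, and WNT10A, WNT1 and WNT9B belong to these wide promoters. The part of anchor width in the depth of WNT10A was not tested. Between replicates, the correlation of depth was 0.925 over the same 25 members and 0.839 over all genes with an anchor.

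**Figure D2:**
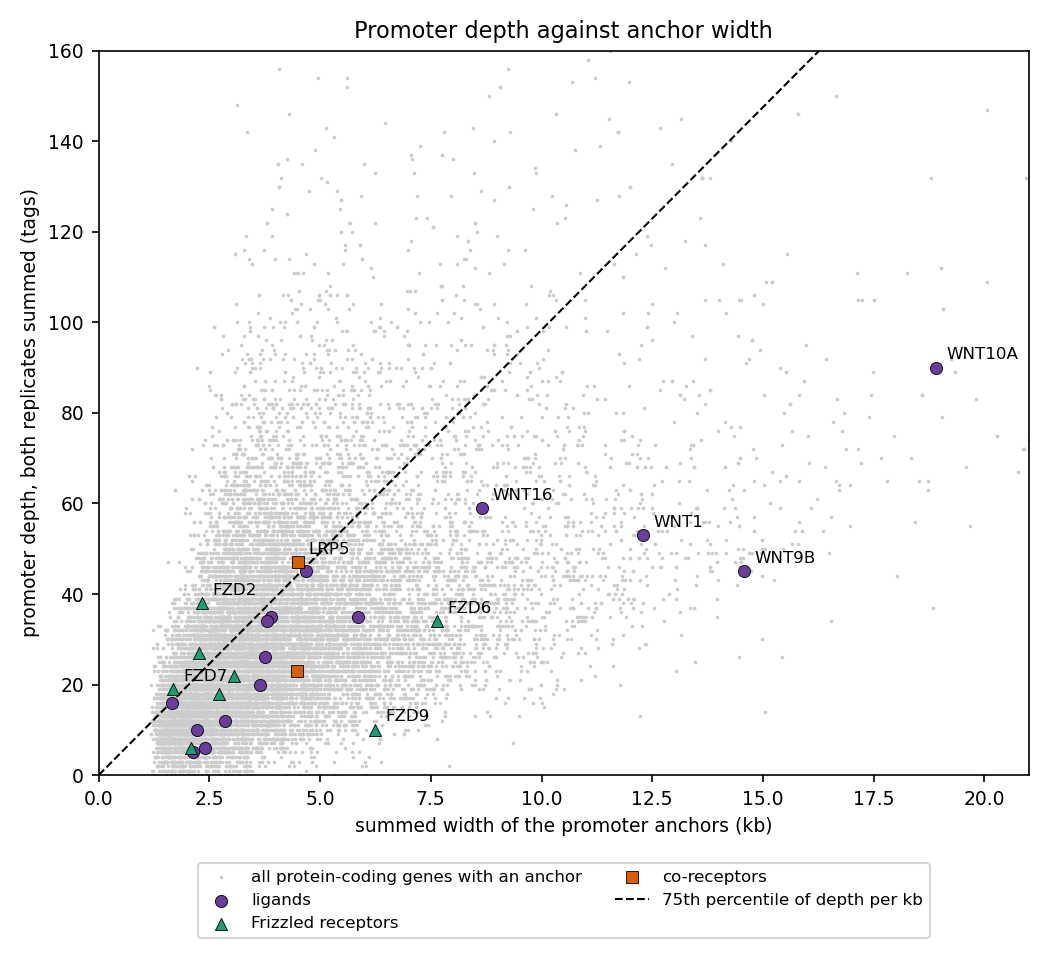
Summed promoter depth in tags against the summed width of the promoter anchors in kb. Grey points are protein-coding genes with an anchor (58 lie outside the drawn range), coloured symbols are the 25 members with one, and the dashed line is the 75th percentile of depth per kb (9.83 tags per kb). WNT10A, WNT1 and WNT9B lie far to the right and below the line, and FZD2 lies above it at 2.34 kb.

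The depth of a promoter was also set against its surroundings, as the median depth of the protein-coding promoters within 5 Mb. WNT10A was 3.46 times and WNT16 2.57 times this local median, and they were the 2 members at or above its 75th percentile in both replicates. WNT1 was 1.56, WNT7B 1.36 and LRP5 1.34 times the local median. FZD2 was 1.09 times and FZD6 0.596 times, where the local median was 57 tags.

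The promoter window held no anchor in 6 members (19.4% of 31, compared with 16.9% of all genes), so their 0 is the lack of an anchor and not a measured count. They were the ligands WNT3, WNT5A, WNT7A and WNT10B and the receptors FZD1 and FZD10. For FZD1, WNT7A and WNT10B an anchor lay close by, at 2.70, 3.02 and 3.49 kb from the start site. For WNT3, the ligand that Paneth cells supply to crypt stem cells, the nearest anchor was 17.1 kb away, and for FZD10 it was 105 kb away. WNT5A, which signals mainly without β-catenin, lay in a gap of 1700 kb with its nearest anchor 692 kb away, while the median gap between neighbouring anchors was 4.05 kb and 138 gaps of the genome exceeded 1 Mb. The promoter windows of the members were richer in GC than those of all genes (median 59.5% and 49.6%). Among genes with a GC content of at least 55%, the median depth was 16 tags for 23 members and 31 for all 4578 genes with promoters lacking an anchor taken as 0, and 26 and 35 tags among promoters with an anchor.

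Several ligands had anchors at start sites of other protein-coding transcripts. Over all such start sites, 5 members had no anchor, compared with 15% of all genes, and WNT3 gained one, at an alternative start site 46.4 kb from the canonical one (4 and 9 tags). The deepest of all these promoter anchors was at WNT7B, chr22:46362340-46366647, beside an alternative start site 4.45 kb from the canonical one, with 33 and 40 tags on 4.31 kb (16.9 per kb). Its loop to chr22:46347021-46360122 at 10.9 kb had 4 and 6 tags, 1.85 times the expected count (0.887 to 3.40). WNT2B had 6 tags at its canonical start site and 68 over all start sites, with anchors of 16 and 14 and of 18 and 21 tags beside a start site 42.4 kb from the canonical one. Over all start sites WNT7B had the most tags of the members, 114 (50 and 64) on 8.98 kb of anchor, compared with 90 for WNT10A. WNT4 had 95, WNT16 92, WNT5B 71, LRP5 60 and WNT11 58. On this scale 6 members were deep, compared with 21.6% of all genes, and LRP5 and WNT11 were not among them.

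The 25 members with an anchor had 550 loops, with a pair of 2 members counted for each. Of these, 433 (78.7%) had a single tag and 69 (12.5%) were found in both replicates. Strong loops, those with at least 5 tags over both replicates, were found for WNT10A (3 loops), WNT16 (2) and FZD2 (2). These 3 genes were 9.68% of the members, compared with 30.6% of all genes. Strong loops of at least 20 kb were found for WNT10A and WNT16 (6.45%, compared with 9.75% of all genes). None of the 7 loops had 5 tags in replicate 2 alone, and 1 loop of FZD2 had 5 in replicate 1. Of the tags of the members, 20.3% went to anchors under 20 kb away, 28.0% to 20 to 100 kb and 51.7% to 100 kb to 1 Mb, compared with 24.4%, 29.1% and 46.6% for all genes.

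WNT10A had the longest of the strong loops. Its wide anchor was joined to chr2:219849875-219854488, which holds the promoter and exon 1 of FEV, an ETS factor of serotonin neurons, by 2 tags in replicate 1 and 3 in replicate 2 over 113 kb. A loop of 36.2 kb to chr2:219772807-219776903, where no protein-coding gene is annotated, had 1 and 4 tags. A loop of 20.3 kb to chr2:219757175-219760766, which holds exon 4 of WNT10A itself, had 3 and 3. The same exon 4 anchor was joined to the WNT6 promoter over 34.8 kb by 4 tags in replicate 1 and 0 in replicate 2. WNT6 and WNT10A start 21.05 kb apart, and their promoter anchors shared 1 and 2 tags.

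**Figure D3:**
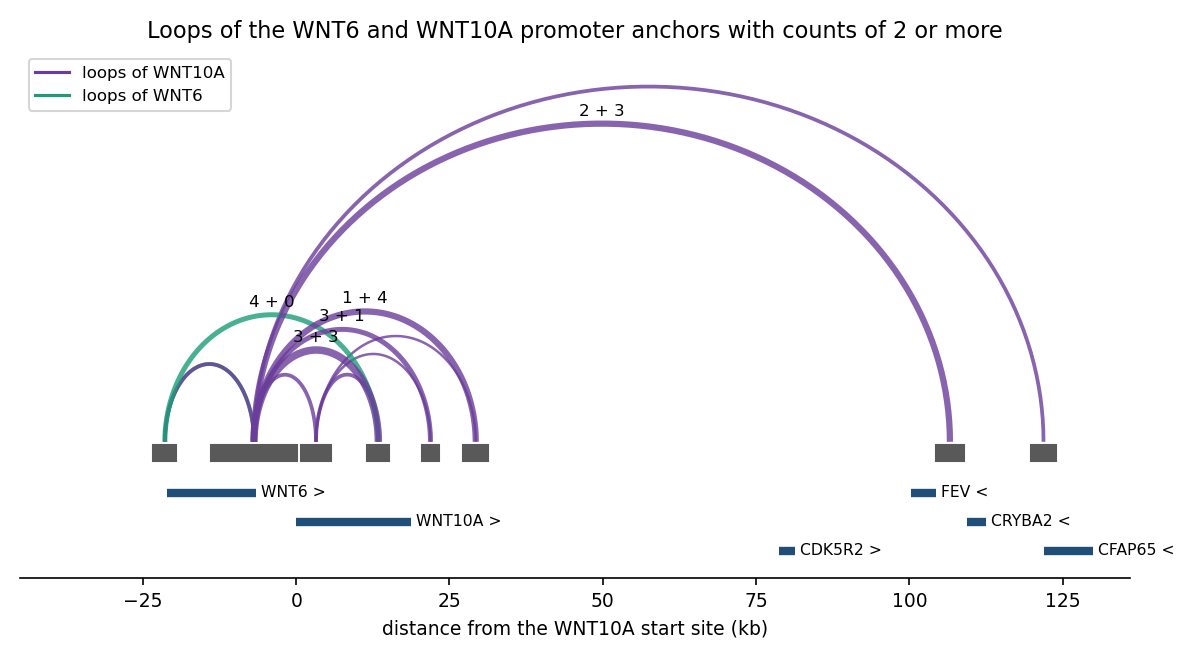
Loops with at least 2 tags of the WNT6 and WNT10A promoter anchors, drawn as arcs against the distance from the WNT10A start site in kb. Loops that end beyond the drawn range, with 2 tags each, are left out. Grey boxes are anchors, blue bars are genes with their direction, line width follows the summed count, and the numbers give tags in replicate 1 + replicate 2 for loops with at least 4. The loops with at least 4 tags span up to 36.2 kb, except for one: the loop of 2 + 3 tags spans 113 kb and reaches the anchor that holds the FEV promoter.

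Both strong loops of WNT16 came from its exon 3 anchor. One of 6.25 kb ran to exon 4 at chr7:120979568-120981120 with 2 and 4 tags, and one of 33.1 kb ran upstream to chr7:120937666-120944289 with 3 and 2. FZD2 had its strong loops upstream, 14.5 kb to chr17:42617740-42621862 with 5 and 1 tags and 7.08 kb to chr17:42626533-42627966 with 3 and 2. Of the 38 tags of FZD2, 16 went to anchors under 20 kb away, while 34 of the 45 tags of WNT7B went beyond 100 kb.

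The count of a loop depends on distance and on the depth of its anchors, so each was set against an expected count built from both. The observed count was 9.63 times the expected one for the loop from WNT10A to FEV (3.13 to 22.5), with 9.94 and 9.56 in replicates 1 and 2. For the other 6 strong loops the ratio was between 1.30 and 3.43, and 3 of the 6 had an interval above 1: WNT10A at 36.2 kb (3.16, 1.03 to 7.38), WNT16 at 6.25 kb (2.81, 1.03 to 6.11) and FZD2 at 7.08 kb (3.43, 1.11 to 7.995). In replicates 1 and 2 alone these ratios were 1.52 and 4.37 for WNT10A at 36.2 kb, 2.99 and 2.63 for WNT16 and 10.5 and 1.86 for FZD2. None of the 550 loops passed a one-sided exact Poisson test after Benjamini-Hochberg adjustment (0 calls, adjusted p = 1 for all 7 strong loops). A loop without a call is not shown to lie at its expected count. At this depth the test called 78 anchor pairs of the genome (0.000153% of 51094598) and a loop in 0.0959% of genes. Without adjustment, 151 of the 550 loops had p under 0.05, 522 had a ratio above 1 and 69 had an interval above 1. These counts are over pairs that are listed because they had a tag, which favours ratios above 1. With an expected count from distance alone, 1 loop of a member was called, WNT10A to FEV (36.6 times, exact Poisson test, adjusted p = 0.00405), compared with a called loop in 11.8% of all genes, and this form takes no account of the depth of the anchors.

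**Figure D4:**
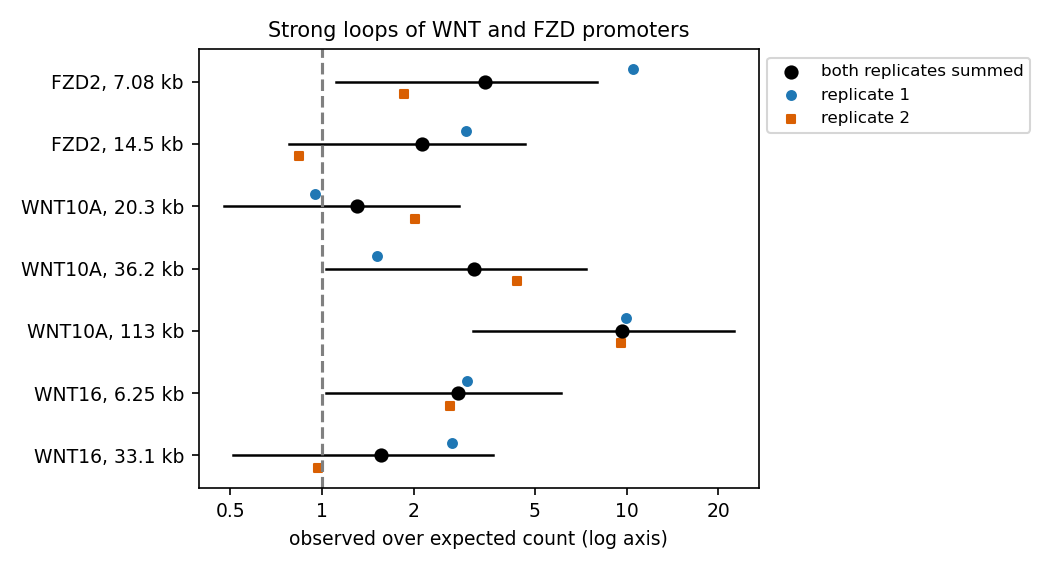
Observed over expected count of the 7 strong loops on a log axis, with the distance between anchor midpoints. Black points with exact Poisson 95% intervals are both replicates summed, blue circles and orange squares are replicates 1 and 2, and the dashed line marks a ratio of 1. The loop of WNT10A at 113 kb is the highest at 9.63, and 3 of the 7 intervals reach below 1.

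Loops with 4 tags, just below the threshold, were found at WNT1, WNT6, WNT10A, WNT9B, WNT8B, WNT7B and WNT4. WNT1 was joined to the promoters of CCDC65, a ciliary gene, at 77.01 kb (1 and 3 tags, 16.5 times the expected count, 4.51 to 42.3) and of FKBP11, a prolyl isomerase of the endoplasmic reticulum, at 53.6 kb (2 and 2 tags, 7.76 times, 2.11 to 19.9). WNT9B was joined to the promoter of GOSR2, a Golgi SNARE, at 80.2 kb (1 and 3 tags, 4.52 times, 1.23 to 11.6). The other intervals above 1 were those of WNT6 at 34.8 kb (5.16 times, 1.41 to 13.2), WNT8B at 14.4 kb (4.82 times, 1.31 to 12.3) and WNT10A at 28.8 kb (4.09 times, 1.11 to 10.5). The intervals reached below 1 for the remaining loop of WNT1, at 42.4 kb (3.17 times, 0.865 to 8.13), for WNT7B at 9.62 kb (0.666 times, 0.182 to 1.71) and 7.28 kb (1.81 times, 0.493 to 4.63) and for WNT4 at 6.26 kb (1.37 times, 0.373 to 3.50). None of these 10 loops passed the exact Poisson test (adjusted p = 1). They were picked for their counts, as were the strong loops, and the intervals do not take this into account. With the tags of the loop itself included, the expected count was 1.092 for WNT8B at 14.4 kb and 1.27 for WNT10A at 28.8 kb. Both exceeded the lower limit of 1.090 tags, so these intervals then reached below 1. The other intervals above 1 among the loops with 4 tags stayed above it.

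The WNT genes form 4 neighbouring pairs in the genome. Besides WNT6 and WNT10A, the promoter anchors of WNT9A and WNT3A, with start sites 59.1 kb apart, shared 0 tags in each replicate. WNT10B lies 6.59 kb from WNT1 and WNT3 lies 32.9 kb from WNT9B, and in both pairs one promoter had no anchor, so a contact between them could not be measured.

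The promoters, here 250 bases before to 50 after the start site, were searched on both strands for letters bound by known factors. CTTTGAT or CTTTGAA, the core of TCF/LEF sites, was in 5.19% of all promoters (CTTTGAT in 1.92% and CTTTGAA in 3.39%) and in 0 of 31 members. TGANTCA, the core of AP-1 sites, was in 5.41% of all promoters and in 0 of 31. GATC was in 40.0% of all promoters and in 11 of 31 members. No match says only that these letters are not in this window.

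Other genes of WNT signalling at the membrane, 42 in all, had 11 deep promoters (26.2%, compared with 20.4% of all genes), 7 deep per kb (16.7%, compared with 17.9%), 3 without an anchor (7.14%, compared with 16.9%; NDP, RSPO1 and TRABD2A) and 16 with a strong loop (38.1%, compared with 30.6%). RNF43 and ZNRF3, ubiquitin ligases that remove Frizzled receptors from the membrane, were both deep. RNF43 had 31 and 59 tags on 2.22 kb, and its 40.5 tags per kb were above 99.96% of all genes. ZNRF3 had 35 and 36 on 7.19 kb, or 9.87 per kb.

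The receptor-proximal genes DVL2, a Dishevelled protein (53 and 44 tags, 15.1 per kb), and CSNK1G2, a kinase of LRP6 (45 and 38, 14.5 per kb), were deep on both scales. AXIN2, a feedback inhibitor and target of β-catenin, had 24 and 20 tags (12.9 per kb) and was deep per kb only. Of 11 secreted inhibitors, DKK1, which blocks LRP6 (37 and 44 tags), DKK3 (21 and 39) and SFRP4 (20 and 23) were deep. Of the membrane inhibitors, the DKK co-receptors KREMEN2 (25 and 37) and KREMEN1 (25 and 25) were deep, and so was the agonist RSPO2 (29 and 28 on 12.1 kb). WLS, the carrier that takes WNT proteins to the cell surface, was also deep with 18 and 23 tags, exactly at the threshold in replicate 1. Over the local median, the 11 deep promoters ranged from 1.19 times (RSPO2, local median 48 tags) to 6.23 times (DKK1, 13 tags). RNF43 was 1.91 times its local median of 47 tags, and AXIN2 was 1.02 times its local median of 43. Strong loops of at least 20 kb were found for DVL2 (2 loops), RNF43 (1) and DVL3 (1). These 3 genes were 7.14% of the 42, compared with 9.75% of all genes.

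**Figure D5:**
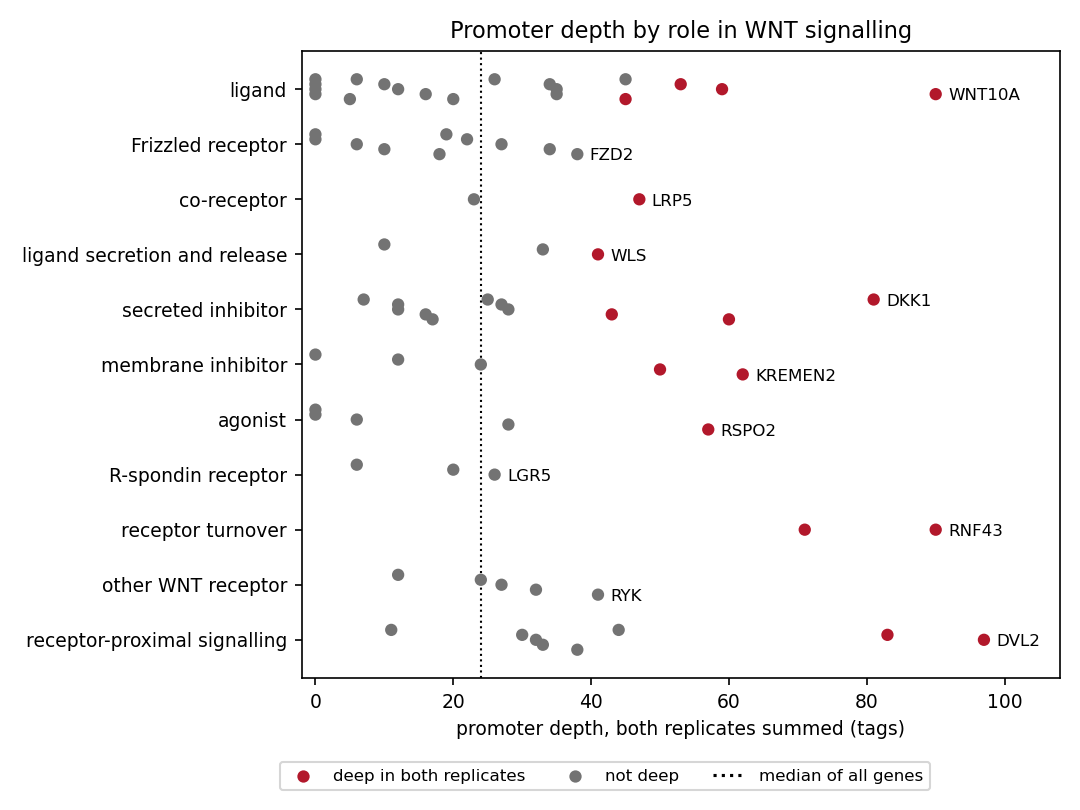
Summed promoter depth in tags of the 31 members and of 42 other WNT pathway genes by role, 1 point per gene, with the deepest gene of each role named. Red points were deep in both replicates and the dotted line is the median of all genes (24 tags). Red points are found among ligands, co-receptors and most other roles, and none among the Frizzled, R-spondin and other WNT receptors.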

How the data were processed

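H3K27ac HiChIP of HCT116 cells was given as 2 replicates. The authors used Hi-C-Pro for valid pairs and hichipper for loops (versions not given in the sources used here), and deposited raw, not normalized counts of the tags between anchors on the same chromosome. The build, hg19, comes from the submitters' processing notes, and positions are printed as deposited, which equals the first base of the MboI site at each edge, counted from 1. Same-anchor counts were kept out of depth.

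Start sites came from GENCODE release 44 lifted to GRCh37. Deep, strong and long loops were defined as in the report, with 5 tags and 20 kb taken from limits the study used for loops of enhancers, and applied here to the sum of both replicates. Expected counts were fitted over pairs up to 2 Mb from 60 distance classes and anchor weights balanced in 20 rounds, leaving the pair's own count out of the depth of its anchors. The exact one-sided Poisson p-values were adjusted by Benjamini-Hochberg across 51094598 pairs and called at 0.05. On simulated data the procedure missed most of the pairs that had been raised and called some that had not. A lack of calls therefore says little about a loop. Intervals are exact Poisson 95% intervals of the summed count and cover counting error only. They leave out the spread between replicates and the error of the fitted expected count. The tags carry no molecular identifiers. With 1 condition no groups could be compared.

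All members are accounted for. Values were printed for members that were deep, near the threshold or had a strong loop of 20 kb or more, and the remaining members were added after their values were seen. The loops with 4 tags, FZD7 and alternative start sites were also named after their values were seen. Promoter sequences of the Frizzled receptors are not reported here. The rule for the members uses gene names and no measured value, but members and lists were chosen with earlier results of these data known. The alternatives were the distance limit, promoter width, transcripts, depth per kb or over the local median, same-anchor counts, thresholds, the background, the expectation and each replicate left out. Analyses ran in Python 3.11.15 with pysam 0.24.0, numba 0.67.0, scipy 1.17.1, pandas 2.3.3 and numpy 2.4.6, and plots in matplotlib 3.10.9.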

Additional observations from a re-analysis of the deposited data

How the results depend on the processing

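Of 13 alternatives for the count of deep promoters, WNT10A was deep in 12, WNT16 in 10, WNT1 in 8, WNT7B in 7 and LRP5 in 6. The 5 deep promoters became 3 with the start site alone (20.8% of all genes) and 2 with depth per kb of anchor (17.9%, FZD2 and FZD7 in place of the 5). They became 2 with depth divided by the local median (18.5%) and 1 at the 90th percentile (7.50%). There were 7 without replicate 1 (25.6% of all genes) and 7 without replicate 2 (27.6%). With 5 kb on each side there were 6 (19.6%), without LRP5, WNT1 and WNT7B. With all protein-coding transcripts there were also 6 (21.6%), without LRP5 and WNT1 and with WNT2B, WNT4 and WNT5B. WNT7B was lost with a limit of 200 kb and with same-anchor counts added, and LRP5 with autosomal genes as background. The 3 genes with a strong loop became 5 with 5 kb on each side (33.9% of all genes) and 6 with all protein-coding transcripts (35.0%). They became 17 with at least 3 tags (60.6%), and 0 with at least 10 tags (5.95%) or with 5 in each replicate (3.70%). The 2 genes with a strong loop of 20 kb or more became 1 with the start site alone (8.52%) and 7 with at least 3 tags (36.8%). They became 0 with at least 10 (0.969%) or with 5 in each replicate (0.570%). With 1 replicate left out and the same threshold of 5 tags, these counts were 0 to 1 and 0 to 0, since each replicate holds part of the tags. The shares of all genes were then 8.42% to 11.4% and 1.58% to 2.70%. The count of loops above expectation was 0 in 4 alternatives, each replicate left out included, and 1 with distance alone. With 1 replicate left out, the ratio to the expected count ranged from 0.945 (without replicate 2) to 2.01 for WNT10A at 20.3 kb, and, with the lower value without replicate 1, from 0.968 to 2.67 for WNT16 at 33.1 kb and from 0.837 to 2.97 for FZD2 at 14.5 kb. It ranged from 1.52 to 4.37 for WNT10A at 36.2 kb and from 1.86 (without replicate 1) to 10.5 for FZD2 at 7.08 kb. The causes were not tested beyond what each alternative changes by construction. No paired analysis was possible because there is 1 condition. Of the loops, 78.7% rest on a single tag, so differences of a few tags were not detectable.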

Other observations

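Beyond 1 Mb, no pair of a member promoter anchor and another anchor of the same chromosome had more than 2 tags.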
